A study of Mus musculus with 7 samples.

Results

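The COPII coat is described here by the 10 genes of its subunits: the GTPases Sar1a and Sar1b, the inner coat proteins Sec23a, Sec23b, Sec24a, Sec24b, Sec24c and Sec24d, and the outer coat proteins Sec13 and Sec31a. They were taken by name from the probe sets that the platform annotation pairs with exactly 1 gene symbol, and all 10 were found, out of 19938 genes with such probe sets. Each had 1 probe set, so no choice between probe sets was needed. The study measured epididymal white adipose tissue, the fat pad beside the epididymis, from male mice on a C57Bl/6J background aged 17 weeks and fed chow. It holds 4 libraries from wild type mice, called W1 to W4 here by their replicate number, and 3 from aP2-XBP1 transgenic mice, called T1 to T3. The transgene places XBP1, the transcription factor that enlarges the folding and export machinery of secretory cells, under the aP2 (Fabp4) promoter, which is active in adipocytes and also known to be active in macrophages. Each library is 1 Affymetrix array, and the values are log2 expression after RMA, so a difference of 1 is a doubling. The labels do not say whether replicates are separate animals, and p-values therefore cover only the spread between these libraries, which could be technical.

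COPII vesicles carry newly folded proteins from the endoplasmic reticulum (ER) to the Golgi. The guanine exchange factor Preb (Sec12) loads Sar1 with GTP, Sar1 inserts into the ER membrane and recruits Sec23 with Sec24, and Sec13 with Sec31 then polymerises into the outer cage that bends the membrane. Sec24 binds the cargo, and Sec23 stimulates GTP hydrolysis by Sar1. Adipocytes send adiponectin, leptin, lipoprotein lipase and collagens along this route, and genes of ER export are among the known targets of spliced XBP1 in secretory cells.

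The labels were checked on Xbp1. It read 8.90, 9.07, 8.94 and 9.19 in W1 to W4 and 9.76, 9.99 and 9.66 in T1 to T3, so every transgenic library lay above every wild type library. How far this probe set reads the transgene's transcript, and which splice form, was not tested. The fat markers were present throughout: Adipoq ranged from 11.09 to 11.83 and Fabp4 from 11.77 to 12.34. W1, W3 and W4 stood apart. In them 3 of the 8 measured epididymal markers were high, with Serpina1f at 10.70 to 11.50, Spink8 at 8.82 to 9.51 and Defb42 at 8.41 to 9.14, against 2.45 to 3.73 for these genes in W2 and in transgenic fat. The other 5 (Lcn5, Lcn8, Rnase10, Adam7 and Spint4) read 1.97 to 4.69 everywhere. All 10 smooth muscle markers had a lower transgenic mean, against 46.4% of all probe sets. Their summed level (log2 of the sum of linear values) was 13.00 to 13.45 in W1, W3 and W4, 11.33 in W2 and 10.66 to 11.27 in transgenic fat. Myh11, smooth muscle myosin, read 10.92 to 11.51 in W1, W3 and W4, 8.21 in W2 and 7.75 to 8.53 in transgenic fat, and Acta2, smooth muscle actin, read 11.79 to 11.95, 10.72 and 9.93 to 10.51. The 10 adipocyte markers summed to 13.83 to 14.26 in W1, W3 and W4, to 14.51 in W2 and to 14.53 to 14.62 in transgenic fat. All 10 had a higher transgenic mean, against 53.6% of all probe sets. Their median log2 difference was 0.43, and 0.06 against W2 alone. W1, W3 and W4 were not alike in every marker list. The mean of the 8 macrophage markers was 9.11 in W1, 9.06 in W3 and 7.67 in W4. It was 8.42 in W2 and 8.10 to 8.43 in transgenic fat. In a bulk sample fewer cells of a type and less RNA per cell cannot be told apart. Each coat gene is therefore also given against W2 alone, the wild type library that lacks the epididymal transcripts.

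Of the coat genes, Sec23b (probe set 10476702) differed most between the genotypes. Sec23b is a subunit of the inner coat, and loss of its function in humans is known as a cause of congenital dyserythropoietic anaemia. It read 7.30, 7.16, 7.28 and 7.46 in W1 to W4 and 7.55, 8.18 and 7.72 in T1 to T3. All 3 transgenic libraries were above all 4 wild type libraries, with a gap of 0.10 between T1 and W4. The wild type mean was 7.30 ± 0.12 (SD, n = 4) and the transgenic mean 7.82 ± 0.32 (SD, n = 3). This is a 1.43-fold higher level (log2 difference 0.52, SE 0.15). In limma, fitted over 21789 probe sets, Sec23b did not pass after Benjamini-Hochberg adjustment (adjusted p = 0.622, unadjusted p = 0.0139), and it ranked 318 by the size of the increase and 409 by p. An exact two-sided permutation test of Sec23b alone gave p = 0.0286, which is the lowest value the 35 possible splits can give. T2 held the highest value, and without it the log2 difference was 0.34. Against W2 alone, where Sec23b was lowest of the 7 libraries, the difference was 0.66.

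Sec23a (probe set 10400515), the paralog that can take the same place in the coat, was nearly level. It read 7.36, 7.28, 7.26 and 7.36 in W1 to W4 and 7.36, 7.37 and 7.41 in T1 to T3. The groups overlapped, since W1 and W4 lay just above T1. The log2 difference was 0.06 (SE 0.04, limma adjusted p = 0.697). The range of Sec23a over all 7 libraries was 0.15, against 1.02 for Sec23b.

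**Figure D1:**
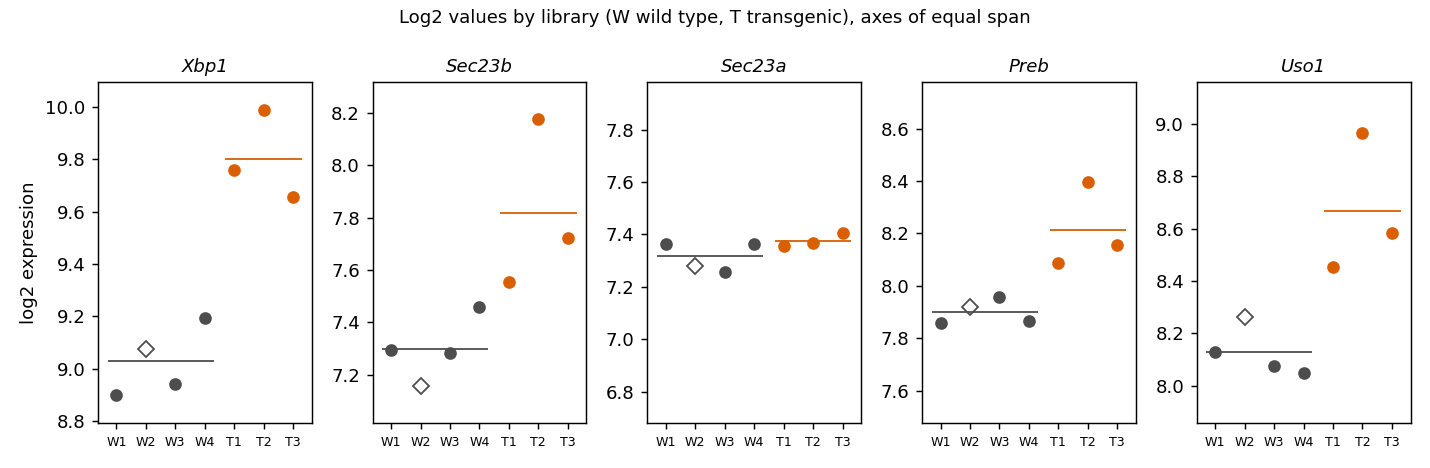
Log2 expression (vertical axis) of Xbp1, Sec23b, Sec23a, Preb and Uso1 in each of the 7 libraries (horizontal axis; W1 to W4 wild type in grey, with W2 as the open diamond, T1 to T3 transgenic in orange), with a line at each group mean and axes of equal span. Sec23b, Preb and Uso1 are highest in T2 and, among the transgenic libraries, lowest in T1. Xbp1 is also highest in T2 at 9.99, but its lowest transgenic value is in T3 at 9.66. Sec23a stays between 7.26 and 7.41.

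The windows before the Sec23 genes are shown because the paralogs differ in them and because XBP1 is known to bind elements with the letters TGACGTGG. The sequences come from RefSeq (GRCm38.p6) and run from 150 bases before an annotated start to 30 bases from it on. Sec24d is shown as the other coat gene with that motif. Capitals mark TGACGTGG. Apart from the runs CCACGT and CCACG that it contains on its other strand, none of the motifs searched occurs in the stretches printed.
Sec23b (chr2:144556079-144556258, plus strand): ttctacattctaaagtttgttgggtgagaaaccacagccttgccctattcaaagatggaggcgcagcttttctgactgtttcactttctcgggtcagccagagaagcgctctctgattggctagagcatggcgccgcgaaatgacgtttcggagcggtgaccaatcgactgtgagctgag
Sec23a (chr12:59011988-59012167, minus strand): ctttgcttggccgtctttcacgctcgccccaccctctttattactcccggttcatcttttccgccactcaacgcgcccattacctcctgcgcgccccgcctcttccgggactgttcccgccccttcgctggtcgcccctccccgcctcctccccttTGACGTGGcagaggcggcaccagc
Sec24d (chr3:123267346-123267525, plus strand): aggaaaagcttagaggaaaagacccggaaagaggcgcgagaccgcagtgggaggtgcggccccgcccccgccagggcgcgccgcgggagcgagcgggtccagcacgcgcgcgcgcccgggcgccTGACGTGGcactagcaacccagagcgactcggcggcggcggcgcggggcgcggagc
In Sec23a the motif lies at positions 6 to 13 (the start is position 0), and in Sec24d at positions -26 to -19. RefSeq places the beginning of Sec24d upstream of the start shown, so this window belongs to 1 of its annotated starts. Sec23b, the gene of the pair with the larger difference, has no match in either of its 2 windows of 300 bases. A match is a run of letters and not a measured binding site, and a missing match says only that these letters are not in the window.

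The search covered 12 windows of the 10 genes, each 300 bases (250 before the start and 50 from it on), on both strands. TGACGTGG was found in 2 of the 12 windows, against 0.676% of the 32851 RefSeq windows and 0.958% of the 11169 windows that hold 13 to 39 CpG, the range of the members' first windows. The shorter run CCACGT, which TGACGTGG contains on its other strand, was found in 8 of the 12 windows, which belong to 7 of the 10 genes, against 8.31% of all windows and 12.7% of windows in that CpG range. The genes without it were Sec23b, Sec24a and Sar1b. The same 7 genes held CCACG, which is part of CCACGT and occurs in 32.8% of all windows and 53.8% of those in the CpG range. The second windows of Sec23b and Sec31a hold 2 and 4 CpG. They count among the 12 but lie outside that range, and the one of Sec31a is among the 8 with CCACGT. The ER stress element ERSE (CCAAT, then 9 bases of any kind, then CCACG) and ERSE-II (ATTGG, then 1 base of any kind, then CCACG) were in 0 of the 12 windows, against 0.119% and 0.0365% of all windows. Genes with CCACGT had log2 differences from -0.07 (Sec13) to 0.21 (Sec24b). For those without it the log2 differences were 0.52 (Sec23b) and 0.10 (both Sec24a and Sar1b). No coat gene passed limma, and whether the matches bear on the differences was not tested.

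Sec24 supplies the cargo-binding sites of the inner coat, and its members form the subfamilies Sec24a with Sec24b and Sec24c with Sec24d. Sec24b (probe set 10502165) read 7.48, 7.57, 7.32 and 7.55 in W1 to W4 and 7.57, 7.61 and 7.90 in T1 to T3. W2 and T1 held the same value, so the groups touched, and the high value was in T3. The log2 difference of Sec24b was 0.21 (SE 0.10, limma adjusted p = 0.639, exact permutation p = 0.0857), and 0.11 without T3. Sec24d (probe set 10495830), whose loss stops mouse development early, read 7.39, 7.39, 7.40 and 7.16 in W1 to W4 and 7.52, 7.72 and 7.21 in T1 to T3. Here T2 was the highest library and T3 lay below 3 of the 4 wild type libraries. The log2 difference of Sec24d was 0.15 (SE 0.13, limma adjusted p = 0.733), 0.03 without T2 and 0.28 without T3.

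Sec24a and Sec24c were tighter. Sec24a (probe set 10385719) read 6.85 in W2, W3 and W4 and in T3, equal to the last digit deposited, with 6.72 in W1 and 6.94 and 6.96 in T1 and T2. Such ties are common in this table: 69.5% of the probe sets tested hold the same value in at least 2 libraries, and so do 6 of the 10 coat genes. The log2 difference of Sec24a was 0.10 (SE 0.05, limma adjusted p = 0.658). Sec24c (probe set 10412981) read 8.10, 7.99, 8.10 and 8.06 in W1 to W4 and 8.11, 8.16 and 8.11 in T1 to T3. Its groups did not overlap, but the gap was 0.0061 and the log2 difference 0.06 (SE 0.04, limma adjusted p = 0.687, exact permutation p = 0.114).

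Sar1 starts coat assembly, and Sar1b is the form whose loss in humans is known to impair chylomicron export from the gut. Sar1a (probe set 10363512) read 9.70, 9.88, 9.78 and 9.80 in W1 to W4 and 9.96, 9.88 and 9.87 in T1 to T3. W2 lay among the transgenic libraries, so the groups overlapped. The log2 difference of Sar1a was 0.11 (SE 0.05, limma adjusted p = 0.638, exact permutation p = 0.0857), and 0.02 against W2 alone. Sar1b (probe set 10375893) read 8.70, 8.78, 8.75 and 8.83 in W1 to W4 and 8.75, 8.89 and 8.95 in T1 to T3. T1 was the low one of its group and lay inside the wild type range, and the log2 difference of Sar1b was 0.10 (SE 0.06, limma adjusted p = 0.67), 0.16 without T1 and 0.0570 without T3.

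The outer coat gave small differences. Sec31a (probe set 10531675), the rod of the cage, read 8.28 in 5 libraries, 4 of them equal to the last digit, with 8.14 in W1 and 8.38 in T1. Its log2 difference was 0.07 (SE 0.05, limma adjusted p = 0.711, exact permutation p = 0.571), 0.03 without W1 and also 0.03 without T1. Sec13 (probe set 10546967), which also serves in the nuclear pore, was the coat gene with a lower transgenic mean. It read 7.24, 7.02, 7.11 and 7.07 in W1 to W4 and 7.07, 6.998 and 7.06 in T1 to T3. The groups overlapped, with a log2 difference of -0.07 (SE 0.06, limma adjusted p = 0.733), and against W2 alone the sign turned to 0.02. Without W1 the difference of Sec13 was -0.0239, and without T2 it was -0.0444.

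**Figure D2:**
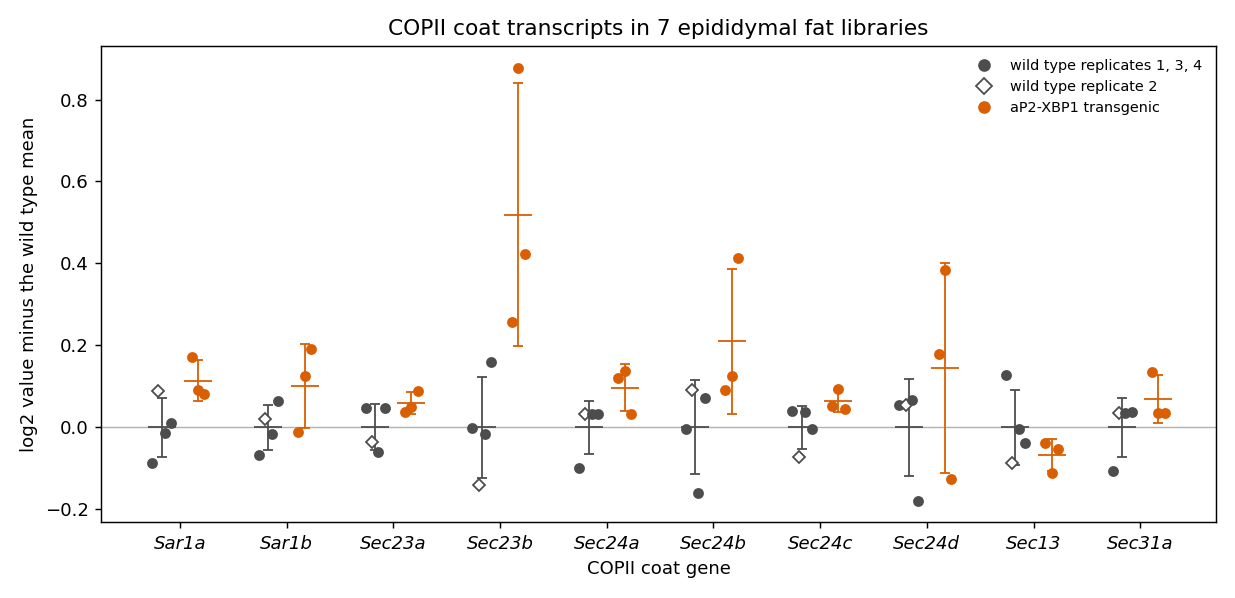
Log2 value of each COPII gene (horizontal axis) in each library minus the mean of the 4 wild type libraries (vertical axis), with wild type in grey (W2 as an open diamond), transgenic in orange, and bars at the group mean ± SD. The transgenic points of Sec23b lie between 0.26 and 0.88 above the wild type mean, those of Sec24d spread on both sides of 0, and those of Sec13 lie below it.

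Over the whole coat, 0 of the 10 genes passed limma at an adjusted p of 0.05, as did 0 of the 21789 probe sets in either direction (0.0% higher and 0.0% lower). Xbp1 itself was among those that did not pass (log2 difference 0.77, limma adjusted p = 0.622). At an unadjusted p under 0.05 limma found 1 coat gene higher, Sec23b, against 4.82% of all probe sets higher, and 0 lower against 3.12%. Groups did not overlap for 2 coat genes higher, Sec23b and Sec24c, against 3.38% of all probe sets, and for 0 lower against 2.44%. A higher transgenic mean was found for 9 of the 10 genes, against 53.6% of all probe sets, and a lower one for 1 gene, Sec13, against 46.4%. Without W2, limma called 7 probe sets higher and 84 lower, and 0 coat genes. The median log2 difference of the 10 was 0.10, against 0.01 for all probe sets, and it was also 0.10 over the other 9 genes without Sec23b. These 9 differences ran from -0.07 (Sec13) to 0.21 (Sec24b). The median SD within groups was 0.07 for the coat and 0.12 for all probe sets. The values over all probe sets, here and for the gene lists, were not matched for expression level. Coat genes read 6.72 to 9.96, and the array medians over all deposited probe sets were 3.99 to 4.04. Against W2 alone, 10 of the 10 coat genes had a higher transgenic mean (52.1% of all probe sets did), with a median of 0.09, and for 3 of them all transgenic libraries lay above that library with no tie (24.0% of all probe sets). Against W1, W3 and W4 that held for 4 genes (8.23% of all probe sets), with a median of 0.11. For the genes whose difference against W2 alone is not given above, it was 0.09 for Sec23a, 0.06 for Sec24a, 0.12 for Sec24b, 0.13 for Sec24c, 0.09 for Sec24d, 0.03 for Sec31a and 0.08 for Sar1b.

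Library by library, the coat gave the mean log2 values 7.81, 7.82, 7.81 and 7.84 in W1 to W4 and 7.92, 8.00 and 7.94 in T1 to T3. The 3 transgenic means stood above the 4 wild type means, and W4 was the highest wild type library. Without Sec23b the means were 7.87 to 7.90 in wild type and 7.96 to 7.98 in transgenic libraries. On that measure W2 was the highest wild type library, followed by W4, W3 and W1, with W3 and W1 both at 7.87. The adipocyte marker means had the same order in these libraries, 10.81, 10.49, 10.34 and 10.12. With Sec23b kept in, the coat's order was W4, W2, W1 and W3. Among the transgenic libraries the coat means without Sec23b fell from T2 over T1 to T3. The adipocyte marker means of these libraries ran the other way, falling from T3 over T1 to T2. The part of cell makeup in the coat's values was not tested. For 4 genes (Sec24a, Sec31a, Sar1a and Sar1b) the lowest library was W1, which also held the lowest adipocyte sum, 13.83. Others went the other way. W1 was the highest of all libraries for Sec13 (7.24) and the highest wild type library for Sec24c (8.10). For Sec23a it shared the highest wild type value, 7.36, with W4.

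The paralogs were then set against each other within each library, which removes any offset that an array gives to both genes. Levels of different probe sets cannot be compared, so only the difference between genotypes in each contrast is read. For Sec23b minus Sec23a the contrast was -0.07, -0.12, 0.03 and 0.09 in W1 to W4 and 0.20, 0.81 and 0.32 in T1 to T3. The groups did not overlap, and the contrast was higher by 0.46 (SE 0.17) in transgenic fat (exact two-sided permutation p = 0.0286, p = 0.229 after Benjamini-Hochberg adjustment over 8 pairs). Since 35 splits allow no p below 0.0286, a pair standing alone among 8 cannot come below 0.229. Without T2 the value was 0.28, and against W2 alone it was 0.57.

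The other 7 pairs overlapped between genotypes. Sar1b minus Sar1a differed by -0.01 (SE 0.08, exact permutation p = 0.886), with the lowest contrast, -1.21, and the highest, -0.91, both in transgenic libraries. Within Sec24, Sec24b minus Sec24a differed by 0.11 (SE 0.14) and Sec24d minus Sec24c by 0.08 (SE 0.14). Across the subfamilies the values were -0.03 (Sec24c minus Sec24a, SE 0.06), 0.05 (Sec24d minus Sec24a, SE 0.13), -0.15 (Sec24c minus Sec24b, SE 0.13) and -0.06 (Sec24d minus Sec24b, SE 0.24). The adjusted p of all 7 was 0.886 in the exact permutation test. In the pair Sec24d and Sec24b the transgenic libraries spread most: T2 was at 0.11 and T3 at -0.68, the library in which Sec24d was low and Sec24b high. For these pairs no difference beyond the spread was detectable with 7 libraries, which does not show that the paralogs behave alike.

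**Figure D3:**
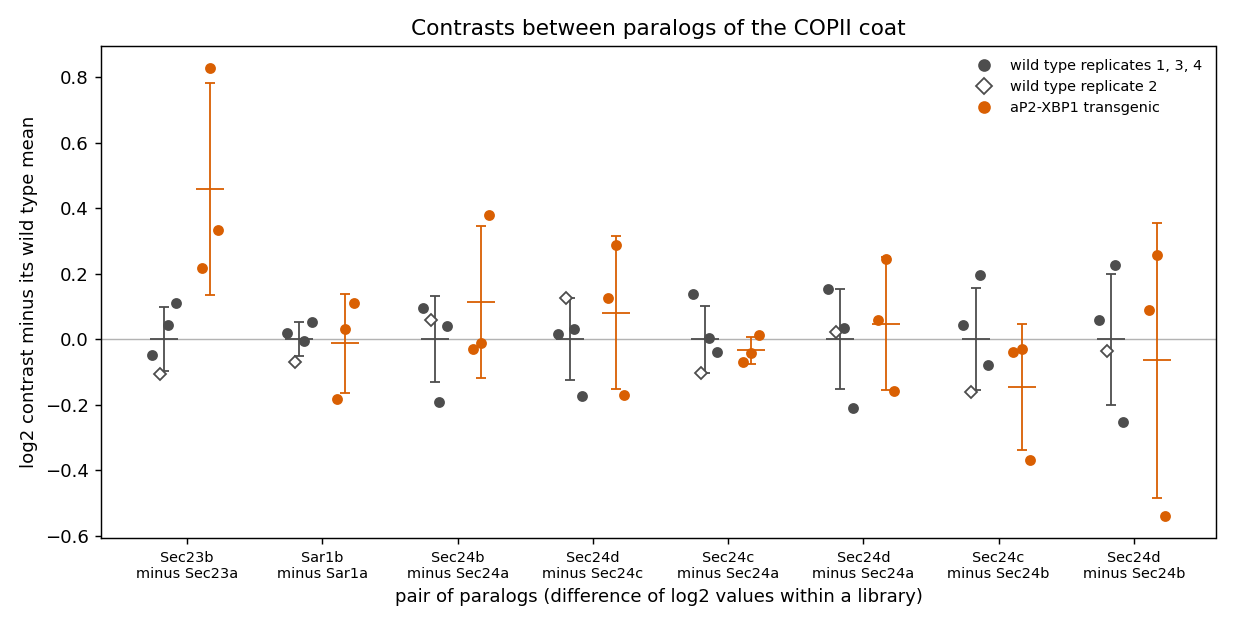
Difference of log2 values between paralogs within each library, minus the wild type mean of that difference (vertical axis), for 8 pairs (horizontal axis), with wild type in grey (W2 as an open diamond), transgenic in orange, and bars at the group mean ± SD. The groups separate for Sec23b minus Sec23a, where the transgenic mean is 0.46, and overlap in the other 7 pairs.

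The proteins that place and regulate the coat at ER exit sites were all measured, 13 of 13, and 0 passed limma. Of these 8 had a higher transgenic mean, 4 had an unadjusted p under 0.05 (all higher), and the groups of 5 did not overlap (all higher). Of all probe sets 53.6%, 4.82% and 3.38% did so in that direction. Preb, the exchange factor of Sar1, read 7.86, 7.92, 7.96 and 7.87 in W1 to W4 and 8.09, 8.39 and 8.16 in T1 to T3, with no overlap. Its log2 difference was 0.31 (SE 0.08, limma adjusted p = 0.622) and 0.29 against W2 alone. Tfg, which organises exit sites, and Sec16a, their scaffold, differed by 0.22 (SE 0.06) and 0.26 (SE 0.08), also without overlap. The others without overlap were Pef1 (0.23) and Creb3l2 (0.28), named after their values were seen. Against W2 alone the difference was 0.19 for Tfg, 0.14 for Sec16a, 0.12 for Pef1 and 0.19 for Creb3l2. Pef1 binds calcium and takes part in the ubiquitination of Sec31, and Creb3l2 is an ER membrane transcription factor known to induce Sec23a. Sec31b, the paralog of Sec31a that is no coat gene of the list above, was dim. Its wild type mean was 3.84 ± 0.12 (SD, n = 4), its transgenic mean was 3.96 ± 0.29 (SD, n = 3), and the groups overlapped. The median of the list was 0.11, but 0.0014 against W2 alone.

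The COPI coat, which carries proteins back from the Golgi to the ER, was set beside COPII as the coat of the opposite direction. The COPI list holds the coat subunits and the GTPase Arf1, and also the regulators Gbf1, Arfgap1, Arfgap2 and Arfgap3. Regulators of COPII were kept in a list of their own, so the COPI and COPII lists are not alike in makeup. Of the 14 genes in the COPI list 9 had a higher transgenic mean and 0 passed limma. An unadjusted p under 0.05 was found for 2 (both higher), and groups were separate for 0 genes. The shares of all probe sets in the higher direction were 53.6% for the mean, 4.82% for the unadjusted p and 3.38% for separate groups. The median difference was 0.05, and 0.01 against W2 alone. The 3 genes of smallest p were Arfgap3, a GTPase activator for Arf1 (log2 difference 0.28), the coat subunit Copz1 (0.26) and Arfgap2 (0.22), and their groups overlapped or touched. Against W2 alone these differences were 0.22 for Arfgap3, 0.40 for Copz1 and 0.09 for Arfgap2.

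Tethers and SNAREs act when COPII vesicles reach the Golgi. All 15 listed genes were measured, 13 had a higher transgenic mean, 0 passed limma, 5 had an unadjusted p under 0.05 (all higher) and 3 had groups that did not overlap (all higher). The same held for 53.6% (mean), 4.82% (unadjusted p) and 3.38% (no overlap) of all probe sets. Uso1 (p115), the long tether that docks COPII vesicles, read 8.13, 8.26, 8.07 and 8.05 in W1 to W4 and 8.45, 8.97 and 8.58 in T1 to T3. The groups of Uso1 were separate, with a log2 difference of 0.54 (SE 0.13, limma adjusted p = 0.622, exact permutation p = 0.0286) and 0.41 against W2 alone. Trappc2 and Trappc5, subunits of the TRAPP tethering complex, differed by 0.29 and 0.30 with groups that overlapped or touched. The others without overlap were Rab1b (0.22), the GTPase that recruits Uso1, and Trappc4 (0.42), another TRAPP subunit, both named after their values were seen. Against W2 alone the difference was 0.16 for Trappc2, 0.22 for Trappc5, 0.17 for Rab1b and 0.27 for Trappc4. The list's median was 0.10, and 0.08 against W2 alone. Sec23b, Preb and Uso1 shared the order of the transgenic libraries, with T2 highest and T1 lowest. Among the other exit site and tether genes without overlap, Tfg had this order too. Sec16a and Creb3l2 were highest in T2 but lowest in T3, as was Xbp1. Pef1, Rab1b and Trappc4 were highest in T3.

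**Figure D4:**
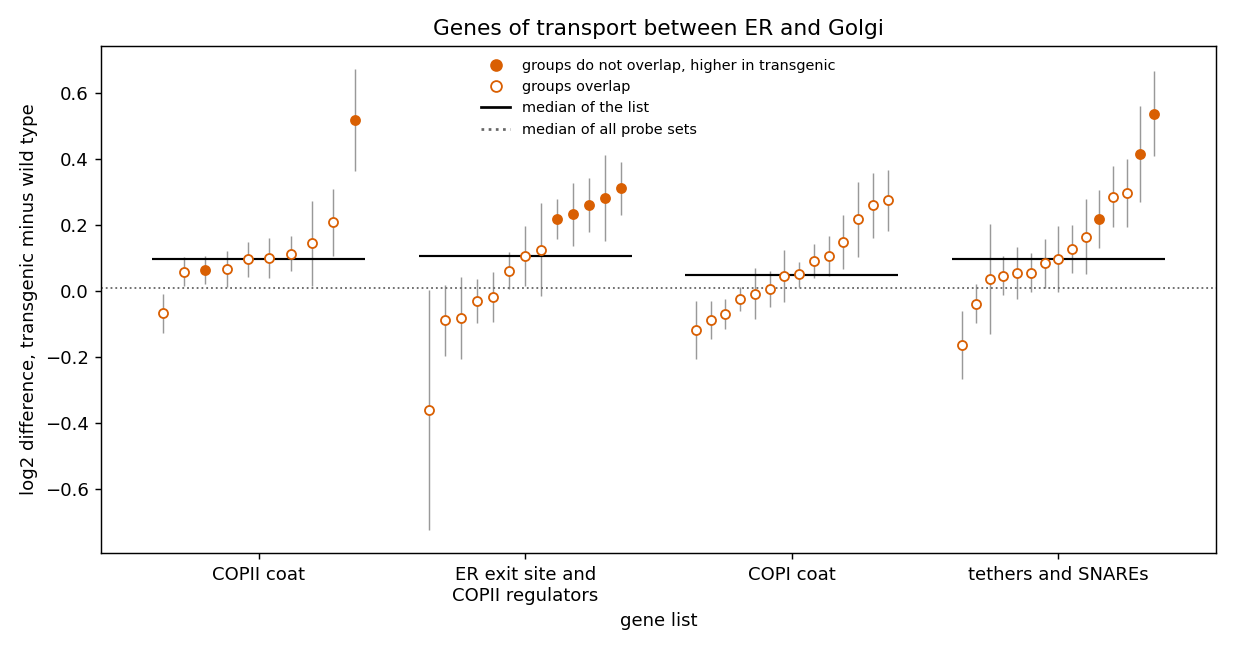
Log2 difference, transgenic minus wild type (vertical axis, bars show the SE from limma), for each gene of 4 lists of transport between ER and Golgi (horizontal axis), with filled points where the groups do not overlap, a black line at each list's median and a dotted line at the median of all probe sets, 0.01. Sec23b (0.52) and Uso1 (0.54) are the highest points of their lists, and the medians are 0.10, 0.11, 0.05 and 0.10 from left to right.

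For the coat genes whose groups did not overlap, the nearest profiles were sought among 19937 other genes by the root mean square distance of log2 values centred over the 7 libraries. Nearest to Sec23b were Ctcfl, a testis paralog of the insulator protein CTCF, at a distance of 0.08, and Rnf181, a ubiquitin ligase, at 0.10, where the root mean square of the centred values of Sec23b itself was 0.32. Ctcfl was dim, at 3.12 to 3.97, while Rnf181 read 7.82 to 8.04 in wild type and 8.27 to 8.62 in transgenic libraries. Nearest to Sec24c were Olfr66 (0.01), an olfactory receptor, and Atp13a5 (0.01), a P-type ATPase, both at 2.82 or less in every library. With 7 libraries, a near profile says nothing of shared function.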

How the data were processed

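The values are log2 expression as deposited by the authors for 35556 probe sets, after RMA per the submitters' processing notes. The RMA version, any filter and the genome build were not stated in any source used here. All 7 columns were matched to samples through the labels. Tests used the 21789 probe sets that the platform annotation pairs with 1 symbol, fitted by genotype alone with lmFit and eBayes of limma 3.58.1 (R 4.3.3), with two-sided p-values adjusted by the Benjamini-Hochberg method at 0.05. Single values were also compared by an exact permutation test over the 35 ways to divide the 7 libraries into 4 and 3.

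The members and gene lists were chosen with earlier results of these data known. Named were all coat genes and Xbp1, per pathway list the 3 genes of smallest p with Preb and Sec31b, the brightest markers, and for coat genes with separate groups the 2 nearest profiles. The lists covered ER exit sites, COPI, tethers and SNAREs, and cell types. Over the remaining marker lists, higher transgenic means were found for 1 of 8 macrophage, 8 of 8 endothelial, 3 of 7 fibroblast and 5 of 6 mesothelial genes. The share of all probe sets was 53.6%. In the same order, these lists had median log2 differences of -0.43, 0.19, -0.16 and 0.62, and of -0.21, 0.06, -0.26 and -0.38 against W2 alone. Their brightest genes ranged over the libraries from 10.83 to 11.88 (Lyz2), 7.84 to 10.76 (Cd68), 8.23 to 8.79 (Cdh5), 7.71 to 8.78 (Kdr), 11.97 to 12.36 (Dcn), 10.27 to 11.45 (Col3a1), 5.88 to 8.72 (Upk3b) and 6.61 to 8.57 (Krt19).

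RMA brings arrays to a common distribution, so a shift of all genes would not show. The array medians over all deposited probe sets still differed slightly by genotype. They were 4.03 to 4.04 in wild type and 3.99 to 4.01 in transgenic libraries, and values with arrays shifted to a common median are given below. The number of arrays limits the precision. Nothing in the labels pairs the replicate numbers. The fit was tested on simulated data. Alternatives were the replicate number as a block, arrays shifted to a common median, another quantile normalization, the dimmest probe sets left out, the mean of a gene's probe sets, a trended robust prior, array weights, each library left out, W2 as the sole control, every row of the table and an adjusted p of 0.1. Figures were drawn with matplotlib 3.10.9.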

Additional observations from a re-analysis of the deposited data

Results flagged for a closer look

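In 3 of the 18 groups of 4 wild type values examined (10 genes and 8 paralog contrasts), 1 library lay far from the others, measured as its gap to the nearest library over the range of the group. For independent, normally distributed values chance gives about 1 such group in 20. That rate does not carry over to these groups, since the 3 flagged genes hold tied wild type values and the contrasts reuse the same genes. The ratio was 1.0 for Sec24a and 0.98 for Sec31a, where W1 was low (6.72 and 8.14) and the other libraries were equal or nearly equal. It was 0.95 for Sec24d, where W4 was low at 7.16 against 7.39 to 7.40.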

How the results depend on the processing

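Not all of the 15 alternatives run for each coat gene are separate checks of its difference. Leaving out the dimmest probe sets, averaging probe sets and the trended prior could not change it. The replicate block gave the same differences as leaving out W4. The transgenic mean of 9 coat genes stayed higher under all 15 alternatives, with Sec23b between 0.34 and 0.66. Sec13 stayed lower except with W2 as the sole control (0.0202). No coat gene passed limma under any of them, and the adjusted p of Sec23b ranged from 0.191 (array weights) to 0.817 (without T3). Over all probe sets, leaving out 1 library gave 0 to 7 calls higher and 0 to 84 lower, all without W2 and none of them a coat gene. An adjusted p of 0.1 and testing every row also gave 0 calls. The coat's median difference was 0.0838 after another quantile normalization, 0.14 with arrays shifted to a common median (which put the median of all probe sets at 0.05) and 0.0779 to 0.11 with 1 library left out. With the replicate number as a block it was 0.10, with 0.57 for Sec23b and 0.50 for Sec23b minus Sec23a, and 0 genes were called. No transgenic library shares the number of W4, so W4 does not count in the block's differences, which equal those without it. Same-numbered samples did not deviate together (correlations -0.14, -0.09 and 0.06), and the block changed no call. With W2 as the sole control, the contrasts were 0.57 (Sec23b minus Sec23a), 0.0566 (Sar1b minus Sar1a), -0.0453 (Sec24d minus Sec24c), 0.0704 (Sec24c minus Sec24a) and 0.0165 (Sec24c minus Sec24b). With 1 library left out they ranged from 0.28 to 0.58 for Sec23b minus Sec23a, -0.0742 to 0.0716 for Sar1b minus Sar1a, -0.0213 to 0.18 for Sec24b minus Sec24a, -0.0222 to 0.21 for Sec24d minus Sec24c, -0.0681 to 0.0122 for Sec24c minus Sec24a, -0.0507 to 0.15 for Sec24d minus Sec24a, -0.20 to -0.0350 for Sec24c minus Sec24b and -0.23 to 0.17 for Sec24d minus Sec24b. Single genes also moved by over 1.5 times for Sec23a (0.0391 without W3), Sec24a (0.0645 without W1) and Sec24c (0.0401 without W2). The cause of these shifts was not tested. Averaging a gene's probe sets left the coat's values as they were, since each gene has 1.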
